A study of Caenorhabditis elegans with 2 samples.

Results

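Small nucleolar RNA (snoRNA) and small nuclear RNA (snRNA) genes encode short noncoding RNAs that process other RNAs. All 475 nuclear genes with these biotypes in the Ensembl annotation of the WBcel235 (ce11) genome were taken, 346 snoRNA and 129 snRNA genes of 46890 nuclear genes, and each was widened by 200 bp on both sides. A locus was called bound when the summit of a peak of LET-526, the highest point of that peak, lay in the widened interval. The loci were taken by biotype and not by peak values, though earlier results of these data were known when they were chosen.

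The peaks came from chromatin immunoprecipitation with sequencing (ChIP-seq) of whole young adult Caenorhabditis elegans, 60 hours old, of strain RW12306, in which the let-526 gene carries an inserted TY1::EGFP::3xFLAG tag, precipitated with an anti-GFP antibody. There was 1 group with 2 biological replicates, and the possible control experiment that the labels name was not analysed here. LET-526, the worm counterpart of ARID1, binds DNA as part of BAF, a SWI/SNF complex that remodels chromatin. Because whole worms were used, the cell types in which a peak arose cannot be told apart.

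SnoRNAs guide chemical modification of ribosomal and other RNAs, box C/D snoRNAs directing methylation of the ribose and box H/ACA snoRNAs pseudouridylation. SnRNAs form the core of the spliceosome. In worms the same biotype holds the sls-1 and sls-2 genes of the spliced leaders SL1 and SL2. Spliced leaders are joined to the front of many messenger RNAs. The biotype also holds most of the smy genes of the SmY RNAs. Worm snoRNA genes are known to lie either in introns, from which the RNA can be processed, or under promoters of their own, some of them RNA polymerase III promoters with an A box and a B box like those inside tRNA genes. SnRNA genes carry a proximal element read by the SNAPc complex, and most are transcribed by RNA polymerase II.

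Some bound snoRNA loci had letters of a tRNA-like promoter before the gene. The short elements TGGCNNAG and GTTCNANNC, where N is any base, match parts of the A box and the B box of tRNA genes, and they were picked after the sequences of bound loci had been seen. Of the 346 snoRNA loci, 13 held both on the strand of the gene within 150 bases of the start, and 10 of these were bound. The 80 bases before the gene start are shown for 7 of the 10, because they let the spacing and the variable bases be compared. T19B4.8, Y39G10AR.24 and T08B2.13, the other 3, are not shown because of the chromosome on which they lie. The sequence runs 5′ to 3′ on the strand of the gene, in order of peak signal among those shown, with the 2 elements in capitals, from the RefSeq WBcel235 genome. The intervals are chrV:11314178-11314257 on the plus strand for T03F7.8, chrII:11960818-11960897 plus for W03C9.9, chrV:11782912-11782991 plus for F55A11.10, chrV:19643188-19643267 minus for Y43F8C.22, chrII:4942520-4942599 minus for ZK546.18, chrIV:7574042-7574121 plus for F32E10.10 and chrII:5105232-5105311 minus for C04G6.12.
T03F7.8: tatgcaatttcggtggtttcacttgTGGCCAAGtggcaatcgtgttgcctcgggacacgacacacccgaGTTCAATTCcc
W03C9.9: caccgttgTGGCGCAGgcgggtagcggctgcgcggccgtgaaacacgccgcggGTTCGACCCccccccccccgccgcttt
F55A11.10: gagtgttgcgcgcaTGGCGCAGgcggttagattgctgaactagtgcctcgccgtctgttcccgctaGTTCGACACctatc
Y43F8C.22: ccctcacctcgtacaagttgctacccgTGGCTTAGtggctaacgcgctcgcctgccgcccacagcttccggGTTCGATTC
ZK546.18: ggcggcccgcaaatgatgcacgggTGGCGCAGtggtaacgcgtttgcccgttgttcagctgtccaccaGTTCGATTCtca
F32E10.10: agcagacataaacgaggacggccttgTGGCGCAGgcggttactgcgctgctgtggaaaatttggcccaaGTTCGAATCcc
C04G6.12: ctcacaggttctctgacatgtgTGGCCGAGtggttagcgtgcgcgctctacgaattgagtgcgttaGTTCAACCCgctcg

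The 3 snoRNA loci that held both elements without a peak looked alike in these bases, and are shown for that reason, with the same marking. The intervals are chrII:6248637-6248716 plus for T24H7.6, chrII:9774835-9774914 minus for T10B9.11 and chrX:1891429-1891508 plus for Y59E1B.14.
T24H7.6: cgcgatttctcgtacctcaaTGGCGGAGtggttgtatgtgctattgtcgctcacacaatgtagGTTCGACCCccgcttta
T10B9.11: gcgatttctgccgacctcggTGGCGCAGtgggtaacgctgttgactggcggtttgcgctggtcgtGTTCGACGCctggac
Y59E1B.14: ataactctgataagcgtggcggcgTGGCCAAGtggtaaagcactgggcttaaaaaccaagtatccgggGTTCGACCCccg

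Some snRNA genes had another element in this place, with or without a peak. GGAACCC, also picked after sequences were seen, stood 55 to 73 bases before the start of 31 of the 129 snRNA genes, 5 of the 13 bound and 26 of the 116 unbound ones. The 80 bases before the start of the 5 bound genes are shown with the element in capitals, to set its position beside that of the snoRNA elements. The intervals are chrIII:10989599-10989678 plus for W05B2.8, chrII:12944968-12945047 minus for sup-6, chrIII:12250385-12250464 plus for sls-2.8, chrIII:5080899-5080978 minus for F54D8.7 and chrV:14028636-14028715 minus for T08G5.11.
W05B2.8: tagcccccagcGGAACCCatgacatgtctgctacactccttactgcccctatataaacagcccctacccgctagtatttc
sup-6: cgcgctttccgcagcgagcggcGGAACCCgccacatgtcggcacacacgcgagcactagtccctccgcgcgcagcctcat
sls-2.8: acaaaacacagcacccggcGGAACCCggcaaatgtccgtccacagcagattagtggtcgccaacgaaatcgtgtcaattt
F54D8.7: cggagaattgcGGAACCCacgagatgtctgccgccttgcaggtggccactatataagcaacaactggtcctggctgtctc
T08G5.11: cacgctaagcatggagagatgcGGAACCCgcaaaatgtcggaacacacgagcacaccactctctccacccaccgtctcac

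Of the 475 loci, 66 were bound in the authors' optimal list, made from both replicates (13.9%, exact 95% interval 10.9 to 17.3%). The same rule applied to all nuclear genes, which differ widely in length, gave 2.67%. Among other noncoding genes, 147 of 612 tRNA genes were bound (24.0%, 20.7 to 27.6%), 298 of 7764 genes annotated as ncRNA (3.84%, 3.42 to 4.29%), 8 of 261 microRNA genes (3.07%, 1.33 to 5.95%) and 9 of 15363 piRNA genes (0.0586%). Their median lengths were 72, 140, 95 and 21 bases, against 130 for snoRNA and 109 for snRNA genes. In this list the snoRNA and snRNA share lay below that of tRNA genes and above those of the other 3 classes. The 66 loci had 64 different peaks, since C51F7.3 and C51F7.4 shared a summit, as did sup-39 and mir-1831, and these were 5.33% of the 1200 optimal peaks, while the widened loci covered 0.247% of the genome. Such intervals cover counting over loci only, and the files give no read depth.

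SnoRNA loci were bound in 53 of 346 cases (15.3%, 11.7 to 19.6%) and snRNA loci in 13 of 129 (10.1%, 5.48 to 16.6%). The intervals of the 2 biotypes overlapped. In the conservative list, a stricter one, the counts were 50 and 11, together 61 loci (12.8%), beside 2.48% of all nuclear genes. These were not a subset of the 66: 55 loci were in both lists and 6 in the conservative list only. In all, 7 loci had a summit in another thresholded list but not in the optimal one. Each chromosome held bound loci, with the highest count on chromosomes II and V, 17 of 87 and 17 of 95, and the lowest on X, 2 of 36.

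Each replicate alone gave fewer bound loci, as it gave fewer peaks. Replicate 1 had 38 (8.0%, 5.72 to 10.8%), beside 1.32% of all nuclear genes, and replicate 2 had 42 (8.84%, 6.45 to 11.8%), beside 1.02%. For tRNA genes the shares were 10.5% (8.15 to 13.2%) in replicate 1 and 10.1% (7.86 to 12.8%) in replicate 2. In each replicate the intervals of the loci and of tRNA genes overlapped. By biotype, replicate 1 called 28 snoRNA (8.09%) and 10 snRNA loci (7.75%), which are nearly equal shares. Replicate 2 called 35 snoRNA (10.1%, 7.15 to 13.8%) and 7 snRNA loci (5.43%, 2.21 to 10.9%), and these intervals overlap. Of the 66 bound loci, 26 were called in both replicates, 10 in replicate 1 only, 14 in replicate 2 only and 16 in neither. The lists of all ranked peaks, taken before a threshold, set the loci less far from other genes: 246 loci (51.8%) held a summit in replicate 1, beside 41.5% of all nuclear genes, and 242 (50.9%) in replicate 2, beside 43.6%.

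**Figure D1:**
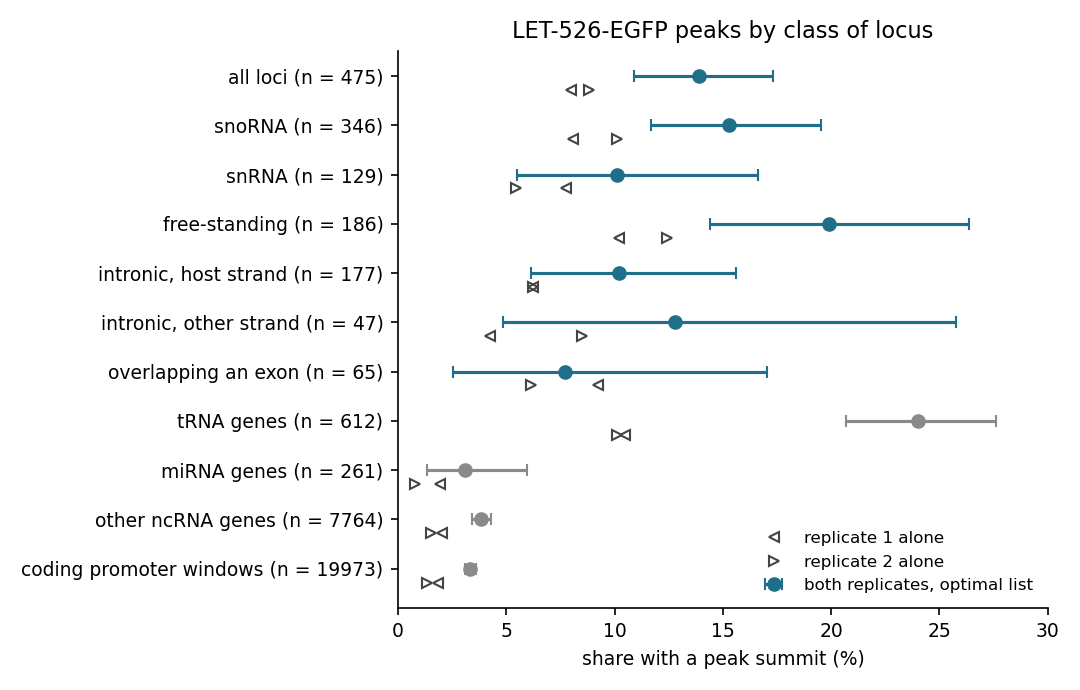
Share of loci or genes with a peak summit, in percent. Circles give the optimal list with exact 95% intervals and triangles each replicate's own thresholded list. Loci of snoRNA and snRNA genes (blue) stand at 13.9% together and free-standing ones at 19.9%, against 24.0% of tRNA genes and 3.32% of coding promoter windows (grey).

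The share of bound loci also differed by location among protein-coding genes. Free-standing loci, which overlapped no protein-coding gene, were bound in 37 of 186 cases (19.9%, 14.4 to 26.4%). Intronic loci on the strand of their host were bound in 18 of 177 (10.2%, 6.14 to 15.6%), those in an intron on the other strand in 6 of 47 (12.8%, 4.83 to 25.7%), and those that overlapped an exon in 5 of 65 (7.69%, 2.54 to 17.0%). The intervals of all these classes overlap. Among snoRNA genes, the counts were 28 of 124 free-standing (22.6%, 15.6 to 31.0%), 14 of 142 intronic (9.86%, 5.5 to 16.0%) and 6 of 27 loci on the other strand of an intron (22.2%, 8.62 to 42.3%). Among snRNA genes they were 9 of 62 (14.5%, 6.86 to 25.8%) and 4 of 35 (11.4%, 3.2 to 26.7%). In replicate 1 the snRNA order turned round, with 6 of 62 free-standing (9.68%) and 4 of 35 intronic loci (11.4%). None of the 20 snRNA loci on the other strand of an intron was bound, with an exact interval up to 16.8%, though the conservative list had 1, sls-2.16. The conservative list had 38 free-standing and 12 intronic loci, replicate 1 had 19 and 11, and replicate 2 had 23 and 11. Of the summits at free-standing loci, 20 of 37 also lay in the promoter window of a protein-coding gene, from 1000 bp before to 200 bp after its start, against 3 of 17 summits at intronic loci. The part of those promoters in the free-standing share was not tested.

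Shorter snoRNA genes were bound more often than longer ones. Under 100 bases, a division made after the lengths had been seen, 28 of 93 were bound (30.1%, 21.0 to 40.5%), against 25 of 253 genes of 100 bases or more (9.88%, 6.50 to 14.2%). Replicate 1 called 14 in each class, which is 15.1% of the shorter and 5.53% of the longer genes, and replicate 2 called 20 (21.5%) and 15 (5.93%). The bound snoRNA genes had a median length of 95 bases and the unbound ones 132. A gene annotated simply as ncRNA lay within 200 bp of 28 of the 66 bound loci (42.4%) and of 74 of the 409 unbound ones (18.1%).

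Signal, the strength that the authors' lists give each peak on a scale not stated, was moderate at most of the loci. In the optimal list the median over the 64 peaks was 108.7, with a range of 63.0 to 326.4, beside 91.2 for the other 1136 peaks, a ratio of 1.19. One of the 20 strongest peaks of the list and 10 of the 100 strongest were at these loci. At the same summits the median in replicate 1 was 58.1, beside 53.4 for the other peaks, and in replicate 2 it was 52.5, beside 43.0. In replicate 2's own thresholded list the order was reversed, with a ratio of 0.964, so the higher signal did not hold in every list. Peaks at snRNA loci had a median of 117.5 (12 peaks) and those at snoRNA loci 108.2 (52 peaks), and the range of the snRNA peaks, 65.2 to 256.8, lay within that of the snoRNA peaks. Across the 62 peaks found in both replicates' ranked lists, Spearman's rho between the 2 signals was 0.486, and Pearson's r of their log10 values was 0.579. Both describe peaks of the same libraries, which are not independent of each other.

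**Figure D2:**
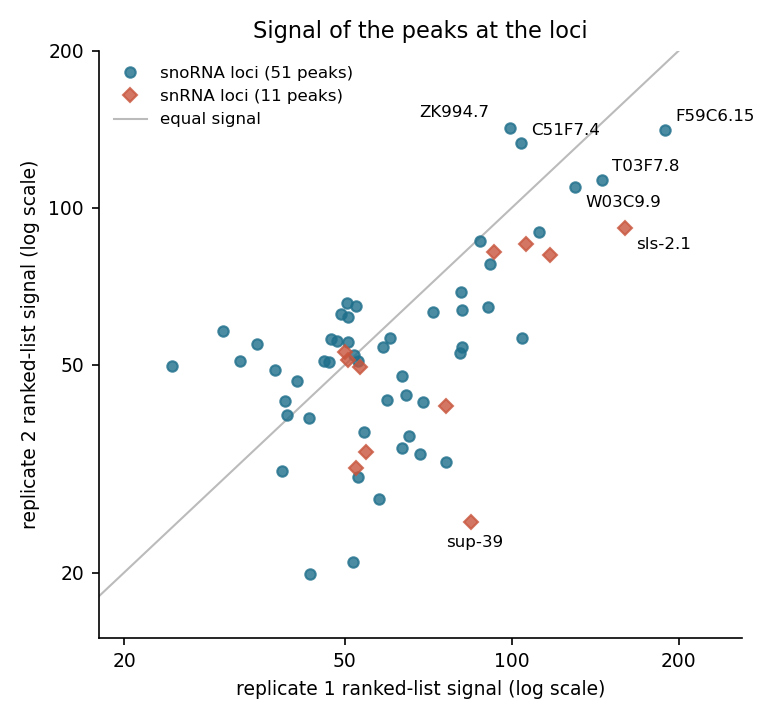
Ranked-list signal in replicate 2 against replicate 1, on log axes, for the 62 peaks at snoRNA loci (circles) and snRNA loci (diamonds) found in both. F59C6.15 was high in both, at 188.8 and 141.1, and sup-39 was high in replicate 1 only, at 84.5 and 25.

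The strongest peak was at F59C6.15, a free-standing snoRNA gene on chromosome I (10516978 to 10517150, minus strand). Its optimal signal was 326.4, rank 12 of the list, with 188.8 in replicate 1 and 141.1 in replicate 2. It stood 89 bp before the gene start. The summit also lay in the promoter window of F59C6.18. The gene had neither of the tRNA-like elements in its first 150 upstream bases, but GGAACCC began there at -73 bp from the gene start.

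A pair of snoRNA genes on chromosome V, C51F7.4 (12303599 to 12303693) and C51F7.3 (12303708 to 12303783), shared a summit with a signal of 251.2, with 104.0 in replicate 1 and 133.0 in replicate 2. The summit stood 19 bp inside C51F7.4 and 90 bp before C51F7.3, which lies in an intron of frm-7. T03F7.8 (chromosome V, 11314258 to 11314332), in an intron of cutl-18 on the other strand, had 244.9, with 145.5 in replicate 1 and 113.3 in replicate 2. W03C9.9 (chromosome II, 11960898 to 11960959), free-standing, had 241.7, with 130.3 and 109.8. ZK994.7 (chromosome V, 8500579 to 8500645), in an intron of pxn-1, a peroxidasin gene, had 237.9, with 99.5 in replicate 1 and 142.4 in replicate 2. All of these were called in both replicates and in the conservative list. The products of these snoRNA genes have no named targets in the annotation used.

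Of the next snoRNA loci by signal, Y75B12B.12 had 203.2, T19B4.8 174.3, F55A11.10 166.3, F55H12.9 161.9, T27A3.9 154.9, F39B2.14 153.2 and T06C12.16 150.7 in the optimal list. All 7 were called in both replicates. The summit of F39B2.14 also lay in the promoter windows of rps-26, a ribosomal protein gene, and tmem-107, and those of Y75B12B.12 and F55A11.10 in the windows of Y75B12B.11 and F55A11.11. M106.6, in an intron of the condensin gene mix-1, had 135.6, Y43F8C.22 133.6 and T02E1.9 132.1, and these too were called in both. B0334.12 (122.8) was called in neither replicate and K11C4.6, in an intron of the spectrin gene unc-70 (121.2), in replicate 2 only. Y53F4B.47 had 117.9 and was called in neither, and Y39G10AR.24 had 117.1 and was called in both. The summits of T02E1.9 and Y53F4B.47 also lay in the promoter windows of T02E1.2 and cmtr-1. The snoRNA loci called in both replicates at lower signal were C04G6.12 (108.6) and ZK20.9 (104.1).

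At the weak end, F17C11.24 had the lowest signal, 63.0, with 43.3 in replicate 1 and 19.8 in replicate 2. W06H8.17 had 69.9 with a replicate 1 signal of 65.4 and no ranked peak at its summit in replicate 2. The summits closest to the 200 bp limit from within stood 155 bp from T28B8.11 and F17C11.24, 110 bp from F09G2.14 and 90 bp from Y53F4B.47 and C51F7.3. Just outside it were F54E7.10 at 251 bp, R166.10 at 264, C27H5.10 at 275, K02F3.15 at 333 and F20D12.10 at 336. No locus had its nearest summit between 155 and 251 bp away. The summits of F17C11.24 and W06H8.17 also lay in the promoter windows of F17C11.26 and W06H8.6, and that of F09G2.14 in those of F09G2.2 and attf-2.

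Summits stood mostly just before the genes. Over the 66 bound loci the median position was 25.5 bp before the annotated start, with 47 summits before the start, 44 of them within 100 bp, 16 inside the gene and 3 beyond its end. The snoRNA summits had a median of -42 bp and 43 of 53 stood before the start. The snRNA summits had a median of 19 bp, with 4 of 13 before the start and 8 inside. Free-standing and intronic loci had medians of -26 and -23 bp. With no widening of the genes, 16 loci were bound, 8 snoRNA and 8 snRNA, because most summits lie before the gene. When each summit was given to its nearest gene start only, 45 snoRNA and 8 snRNA loci were bound.

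**Figure D3:**
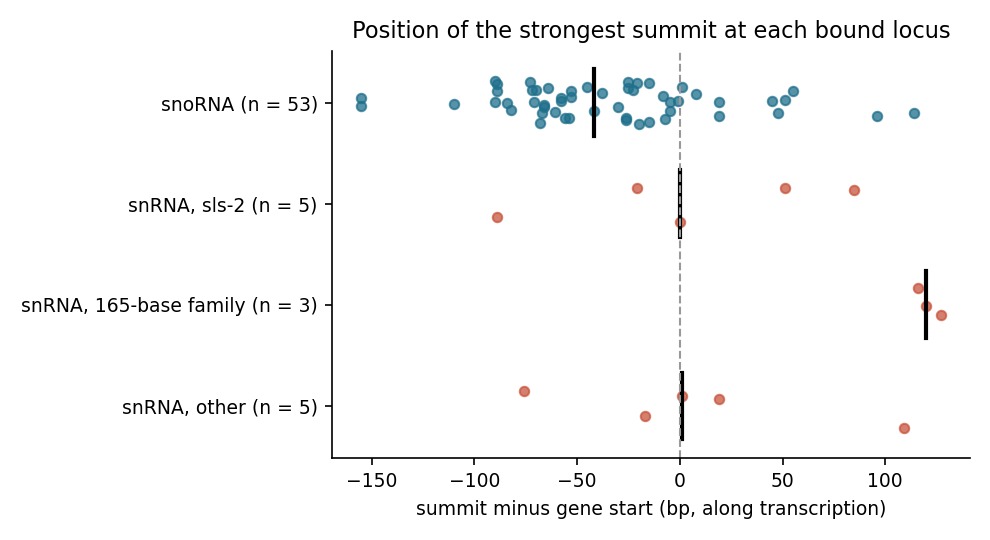
Summit position relative to the annotated gene start in bp, negative before it, for each bound locus, with the median as a black bar. SnoRNA summits centre on -42 bp, sls-2 summits scatter from -89 to 85 bp, and the 3 of the 165-base snRNA family lie at 116 to 127 bp.

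The tRNA-like elements divided the snoRNA loci. With both elements, 10 of 13 loci were bound (76.9%, 46.2 to 95.0%), with only 1 of them 13 of 44 (29.5%, 16.8 to 45.2%), and with neither 30 of 289 (10.4%, 7.11 to 14.5%). Replicate 1 alone called 9 of the 13, 8 of the 44 and 11 of the 289 loci, and replicate 2 alone 8, 11 and 16. The order was therefore the same in both libraries. Because the elements were found in the bound loci, these shares describe the data and do not test the elements. Gene length went with them: the median was 75 bases with both elements, 119 with only 1 and 132 with neither. The separate parts of length and elements in the shares were not tested.

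**Figure D4:**
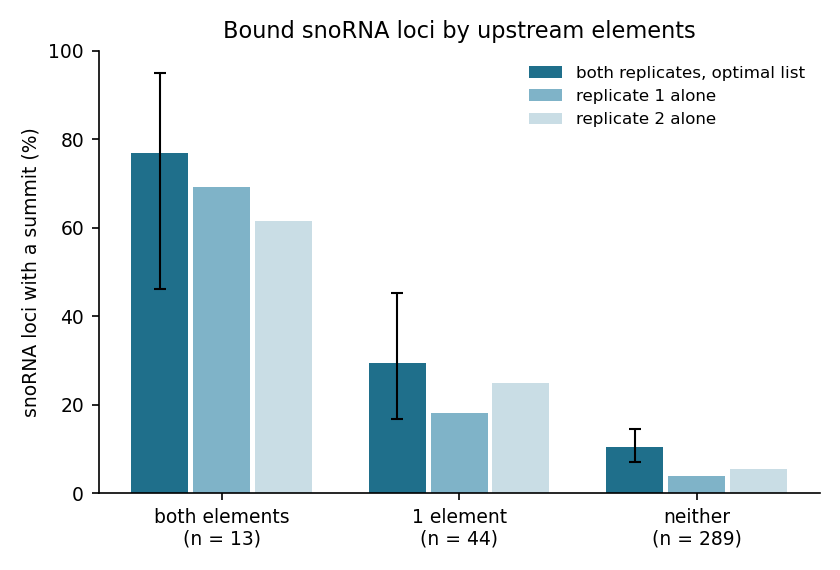
Share of snoRNA loci with a summit, in percent, by the tRNA-like elements before the gene, for the optimal list (with exact 95% intervals) and for each replicate's thresholded list. Loci with both elements stand at 76.9%, with 1 at 29.5% and with neither at 10.4%.

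Taken singly, TGGCNNAG stood before 16 of 53 bound and 19 of 293 unbound snoRNA genes, and GTTCNANNC before 17 of 53 and 18 of 293. Of the 150-base stretches before all 19973 protein-coding genes, 1.28% held the first on the gene's strand, 2.15% the second and 0.035% both. On either strand the counts were 18 of 53 and 30 of 293 for TGGCNNAG and 17 of 53 and 22 of 293 for GTTCNANNC, beside 3.11% and 3.77% of protein-coding genes. Inside the 612 tRNA genes themselves, 95.9% held GTTCNANNC and 17.6% TGGCNNAG in this spelling. The 2 elements were regularly placed in the 10 bound loci that held both: TGGCNNAG began 43 to 52 bases before GTTCNANNC, with a median of 44, as it did 43 to 45 bases before it in the 3 unbound ones. In the bound snoRNA loci GTTCNANNC began at a median of 14 bases before the gene and TGGCNNAG at 58.5. A match is a stretch of letters, not a site shown to be used.

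Bound loci of each kind of location held these elements. Among intronic snoRNA loci on the host's strand, GTTCNANNC stood before 6 of 14 bound and 6 of 128 unbound genes, and among free-standing ones before 6 of 28 and 6 of 96. The 10 bound loci with both elements had signals of 84.8 to 244.9 with a median of 125.4, and those with neither 63.0 to 326.4 with a median of 104.0. The summits of the 10 stood between 72 bp before and 8 bp after the gene start. The 3 unbound ones were far from any optimal summit, 2121 bp for T24H7.6, 10598 bp for Y59E1B.14 and 33210 bp for T10B9.11. Ranked peaks nevertheless stood at them. Their signals were 27.2 in replicate 1 and 39.5 in replicate 2 at T24H7.6, and 32.6 and 36.7 at T10B9.11. Y59E1B.14 had 20.8 in replicate 1 alone. The lowest values at bound snoRNA loci were 24.4 in replicate 1 and 19.8 in replicate 2, so only the Y59E1B.14 value lay below them.

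**Figure D5:**
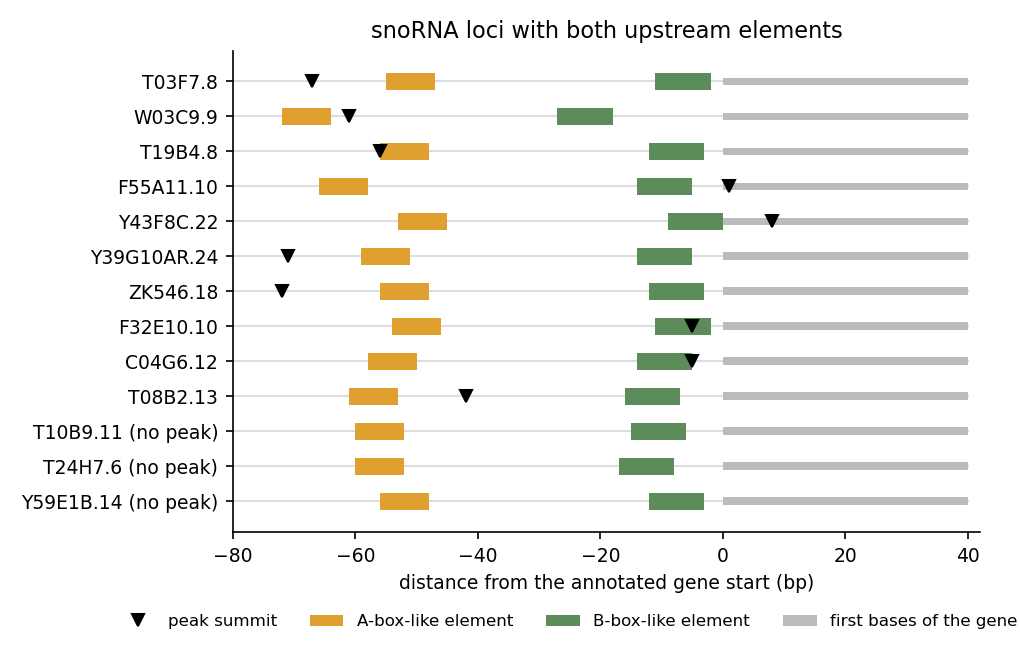
The 13 snoRNA loci with both upstream elements, one per line in order of signal, against distance from the annotated gene start in bp. Orange marks TGGCNNAG, green GTTCNANNC, grey the first bases of the gene and triangles the peak summit. The elements keep their spacing of 43 to 52 bases while summits stand from -72 to 8 bp, and the lowest 3 loci have no peak.

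The motifs chosen in the plan were searched on both strands of the 250 bases before each gene. GTTCGANNC, a narrower spelling contained in GTTCNANNC, stood before 10 of 53 bound and 14 of 293 unbound snoRNA genes, and before 1.17% of protein-coding genes. TATAAA stood before 16 of 53 and 66 of 293, beside 35.2% of protein-coding genes, and GAGAG before 30 of 53 and 120 of 293, beside 34.5%. Among snRNA genes TATAAA stood before 5 of 13 bound and 32 of 116 unbound genes and GAGAG before 9 of 13 and 47 of 116. By the ends of the RNA, box C (TGATGA) with box D (CTGA) was found in 5 of 53 bound and 10 of 293 unbound snoRNA genes, and an ACA near the end in 17 of 53 and 55 of 293. These exact spellings reach only a minority of snoRNA genes, so neither class of snoRNA could be assigned in full.

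The 13 bound snRNA loci fell in 7 of 31 families grouped by sequence. Among these were families of 1 member each: mir-1831, which lies inside sup-39, and sls-2.9, which the grouping set apart from the other sls-2 genes. Of the 18 sls-2 genes, 5 were bound (27.8%, 9.69 to 53.5%), and of the 12 sls-1 genes none (0%, up to 26.5%), and these intervals overlap. No sls-1 gene held a ranked peak in either replicate, whereas 12 sls-2 genes held one in replicate 1 and 15 in replicate 2. The sls-1 genes lie on chromosome V and have 2 different sequences in all, while the 18 sls-2 genes have 18. Whether the placing of reads among identical copies had a part in this was not tested. None of the 10 smy genes with the snRNA biotype was bound (0%, up to 30.8%). Neither were smy-2 and smy-3, which have the snoRNA biotype.

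The strongest of all snRNA peaks was at sls-2.1 (chromosome II, 5844865 to 5844974), with a signal of 256.8, or 160.2 in replicate 1 and 91.5 in replicate 2. Next among spliced leader genes was sls-2.2 (chromosome II, 5543598 to 5543707), with 204.1, or 117.4 and 81.2. sls-2.4 had 190.7 (92.8 and 82.5) and sls-2.9 had 98.0 (50.8 and 51). sls-2.8 had 101.2 (49.96 and 53.0) and, unlike the other 4, was called in neither replicate alone. All 5 were free-standing and in the conservative list. Their summits stood at -21 bp for sls-2.1, 0 bp for sls-2.2, 85 bp for sls-2.4, 51 bp for sls-2.8 and -89 bp for sls-2.9. Those of sls-2.1 and sls-2.4 also lay in the promoter windows of the protein-coding genes H41C03.3 and egg-5. That of sls-2.8 also lay in the windows of tim-1 and Y75B8A.23. Of the 13 sls-2 genes without a peak, sls-2.3 had a summit 566 bp away and the others none within 12071 bp.

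Of the 5 bound sls-2 genes, 4 also had tRNA-like letters, but on the strand opposite to the gene and farther away. The end of GTTCGANNC on that strand, its base farthest from the gene, stood 169 to 192 bases before the start of sls-2.1, sls-2.2, sls-2.4 and sls-2.9. The bound sls-2.8 had neither element there, and no unbound sls-2 gene had GTTCGANNC. With the wider GTTCNANNC, the unbound sls-2.3 had a match ending at 183 bases, and the unbound sls-2.13 had TGGCNNAG ending at 217 bases. At sls-2.9 an annotated tRNA gene lies within 200 bp, the only one beside any of the 475 loci. Genes annotated as ncRNA lie within 200 bp of sls-2.2 (C17C3.23), sls-2.4 (R12E2.18) and sls-2.9 (M01E5.8). No other noncoding gene lies that close to sls-2.1. The stretch is shown for sls-2.1 and sls-2.2, read on the minus strand, opposite to these genes, from 111 to 190 bases before the gene start, with the same elements in capitals. The intervals are chrII:5844675-5844754 for sls-2.1, which also held TGGCNNAG, and chrII:5543408-5543487 for sls-2.2.
sls-2.1: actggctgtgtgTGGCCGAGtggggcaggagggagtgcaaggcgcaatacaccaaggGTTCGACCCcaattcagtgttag
sls-2.2: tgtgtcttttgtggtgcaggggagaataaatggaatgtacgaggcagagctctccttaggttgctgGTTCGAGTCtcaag

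Over all snRNA loci GTTCGANNC, on either strand, stood before 5 of 13 bound and 2 of 116 unbound genes, the fifth bound one being F54D8.7. GGAACCC stood before 5 of 13 bound and 26 of 116 unbound snRNA genes, before 3 of 53 bound and 18 of 293 unbound snoRNA genes, and before 0.16% of protein-coding genes. On either strand the snRNA and snoRNA counts of GGAACCC were the same. It was frequent before snRNA genes whether or not they had a peak.

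The U1 snRNA pairs with the 5′ splice site of introns. Both sup genes, sup-39 and sup-6, which encode U1, were bound, and with T08G5.11 they made up all bound members of a family of 13 genes of similar sequence and a median length of 165 bases. sup-6 (chromosome II, 12944803 to 12944967), in an intron of F58G1.7, had a signal of 115.3, with 53.2 in replicate 1 and 49.6 in replicate 2, and was called in both. sup-39 (chromosome II, 6968394 to 6968558), in an intron of C15F1.5, had 120.5, but with 84.5 in replicate 1 and 25 in replicate 2, and was not in the conservative list. mir-1831, a 22-base gene inside sup-39 that the annotation gives the snRNA biotype, was bound only through the summit of sup-39. That summit also lay in the promoter window of the protein-coding gene eif-2Bgamma. T08G5.11 had 65.2 and no ranked peak at its summit in replicate 2. The 3 summits stood 116, 120 and 127 bp after the gene starts of sup-39, sup-6 and T08G5.11.

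Other bound snRNA genes had no name in the annotation. W05B2.8 (chromosome III, 10989679 to 10989780), in an intron of the dynein gene dhc-4, had 195.7, with 106.3 in replicate 1 and 85.2 in replicate 2. The summit stood 1 bp after the start of the gene. W05B2.8 belonged to a family of 23 genes, 14 of them identical copies, in which F54D8.7 was the only other bound member, with 84.3 (52.5 and 31.8). In Ensembl, W05B2.8 shares its name with other members of this family, none of them bound. The placing of reads among identical copies was not tested here either. F38E11.10 had 119.7 (76.0 and 41.7) and was called in both replicates. The summits of F54D8.7 and F38E11.10 also lay in the promoter windows of cox-6A and F38E11.9. C52E4.8 had 85.6 (54.6 and 34.1), was called in neither, and its summit also lay in the promoter window of snr-4, a gene of an Sm protein that coats snRNAs. A family of 19 genes with a median length of 187 bases had no bound member, beside 10.1% of all snRNA loci. It has 12 different sequences with up to 7 identical copies, and the placing of reads among copies was not tested.

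No host gene had a promoter peak together with a bound locus inside it. The 177 intronic loci lay in 151 hosts, of which 22 had a promoter peak (14.6%, 9.36 to 21.2%), beside 3.32% of all protein-coding genes. None of the 17 hosts with a bound intronic locus had one (0%, up to 19.5%), against 22 of the 134 hosts without (16.4%, 10.6 to 23.8%), and these intervals overlap. The 17 bound hosts included frm-7, pxn-1, unc-70, unc-41, mix-1, dhc-4, pyk-1, fars-1, cfim-2 and catp-8. Their nearest intronic gene start was 843 bp (Y43F8C.7) to 19735 bp (dhc-4) from the host start.

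The strongest promoter peaks among hosts were at rpl-15 (356.6), the ATPase gene cdc-48.1 (300.3), the Hsp70 gene hsp-1 (286.0), rps-23 (256.5), rps-12 (242.0), the translation factor gene iff-2 (222.3), wwp-1 (174.9) and rpl-7A (164.5). Of 13 hosts in the rpl and rps families, which encode ribosomal proteins, 6 had a promoter peak, beside 22 of all 151 hosts (14.6%). None of their 19 intronic loci was bound, beside 18 of all 177 intronic loci (10.2%), a difference that was not tested. The ribosomal protein hosts were chosen by name after their values were seen. Y37E3.8, annotated as a ribosomal protein gene under another name, was not among them. It held 2 loci, both unbound, and had no promoter peak. The rps-12 peak was the one that stood 251 bp from F54E7.10, the nearest locus outside the limit. nol-56 shows the same arrangement: it encodes a core protein of box C/D particles and holds 4 snoRNA genes, and it had a promoter peak of 78.9 with no bound locus inside.

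Genes for the proteins that make or carry these RNAs were examined by promoter peaks, from a list made with earlier results of these data known. Of 34 such genes, 8 had one (23.5%, 10.7 to 41.2%), beside 3.32% of all protein-coding genes. Among snoRNA particle proteins these were fib-1 (100.7), the fibrillarin methyltransferase, nol-56 (78.9) and nol-58 (77.9), 3 of 8 genes. None of the H/ACA genes, dkc-1, garr-1, Y48A6B.3 and nola-3, had one. Among Sm proteins and SMN, which assembles them on snRNA, snr-1 (108.5), snr-2 (94.5), snr-4 (85.6) and smn-1 (99.5) had one, 4 of 8 genes. Of 18 genes of SNAPc, which starts snRNA transcription, and Integrator, which cuts the 3′ end of snRNA, ints-8 (95.5) alone had one. Replicate 1 called 3 of these 8 promoters by itself and replicate 2 none, and 3 kept a peak when each summit was given to its nearest gene start only, so this count rests on the combined lists.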

How the data were processed

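ChIP-seq peaks of 2 biological replicates of 1 group were analysed from the authors' lists on ce11, with 1200 optimal, 1077 conservative, 585 replicate 1 and 421 replicate 2 thresholded peaks. In the deposited lists, signal is the authors' strength of a peak on a scale not stated, the score is scaled from the irreproducible discovery rate (IDR) and is 830 or more (an IDR of about 0.0100 or less) in thresholded lists, and the deposited −log10 IDR column gives the same rate. The authors' summit offset gives the position in the peak. The sources used here name no caller, aligner or read depth. Signals from different lists were not compared in level.

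Genes came from Ensembl release 115 and names and sequence from RefSeq WBcel235. In Ensembl, 44 loci share 9 names, so all 475 loci carry RefSeq names matched by gene ID. Replicate signal is that of the ranked peak covering the optimal summit, the strongest where several did. Families of snRNA genes were joined at 80% identity. Shares have exact Clopper-Pearson 95% intervals, and no test between groups exists with 1 group. Counting was tested on simulated summits. Python 3.11.15, numpy 2.4.6 and scipy 1.17.1 were used.

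The rule for naming took every bound snRNA locus, the 20 snoRNA loci with the highest signal, loci called in both replicates, 5 loci on either side of the distance limit, and listed protein genes with a promoter peak. Loci and lists were chosen with earlier results of these data known, and 3 listed Integrator entries were not matched. Of the ranked peaks from which the optimal list was taken, 125 passed the score limit but were missing from that list, none at a locus.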

Additional observations from a re-analysis of the deposited data

How the results depend on the processing

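Of 86 values of 10 results under other settings, 57 stayed within the limits used (1.5 times for counts, the interval or replicate SD for other values), 27 moved and 2 were reversed. Leaving out a replicate gave 38 to 42 bound loci, 28 to 35 snoRNA, 7 to 10 snRNA, 11 intronic with either left out, 19 to 23 free-standing, 11 to 13 hosts, 0 to 3 listed protein genes, 6.15 to 9.74% of summits, a median position of -37.5 to -26.5 bp and a signal ratio of 0.964 to 1.2. That ratio was reversed without replicate 1 and 1.2 without replicate 2. With no widening, 16 loci remained bound, 8 snoRNA and 8 snRNA, 5 intronic and 9 free-standing, with 1.33% of summits and a median position reversed to 46.5 bp, since summits before genes are then left out. With peaks above the median signal only, 14 hosts and 5 listed protein genes had a promoter peak, 7.67% of summits were in the loci and the ratio was 1.02. Giving each summit to its nearest gene start left 8 snRNA loci and 3 listed protein genes. Exclusion of the locus beside a tRNA gene left 65. No paired analysis was possible because there was 1 group. Read depth is unknown.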
